A study of Mus musculus with 8 samples.

Results

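The transforming growth factor beta (TGF-beta) family was followed in mouse kidney cortex through 53 genes of 21704 gene names in the deposited table. The genes were taken by name as ligands, latency proteins, receptors, SMAD transcription factors, antagonists and feedback genes of the family, with earlier results of these data known, though the rule itself uses no measured value. For description, 21 were placed in the TGF-beta/activin arm, 24 in the BMP (bone morphogenetic protein) arm and 8 in neither arm alone. RNA of kidney cortex had been sequenced in 4 libraries labelled Sav1+/+ and vehicle (called wild-type below) and 4 labelled Sav1-/- and tamoxifen (called Sav1-null), all of mixed strain background. Sav1 encodes the scaffold protein salvador of the Hippo kinase pathway. The labels leave unstated whether each library is a mouse of its own, so that a p-value here measures only how far these libraries spread, which may be technical. The age of the mice, the exons removed, and the promoter and cell type of any recombinase were not given in the sources used here. Each value below is the deposited normalized expression level, scaled so that the upper quartile of the values above 0 lies near 1000 in every library. Values are given in the order of replicates 1 to 4 of each group. Fold changes compare group means of log2(value + 1), which understates the change of genes with low values.

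Ligands of this family are dimers that bring together pairs of type I and type II serine/threonine kinase receptors. TGF-beta and activin receptors phosphorylate SMAD2 and SMAD3, BMP receptors phosphorylate SMAD1, SMAD5 and SMAD9, and both groups of SMADs enter the nucleus with SMAD4. TGF-beta is secreted in a latent complex that LTBP proteins tether to the matrix. In the kidney, TGF-beta is known as a driver of matrix deposition by fibroblasts and of epithelial dedifferentiation, while BMP7, made by the distal nephron and collecting duct, is known as a factor that maintains tubule epithelium.

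The libraries held about 20500000 to 25000000 reads in the wild-type group and 15700000 to 20900000 in the Sav1-null group. Sav1 itself was at 1504, 1743, 959 and 1193 in the wild-type and 983, 914, 982 and 714 in the Sav1-null libraries, with wild-type replicate 3 inside the Sav1-null range. Its log2 fold change was -0.56 ± 0.19 (SE, limma adjusted p = 0.0220), and Sav1 was no longer called when wild-type replicate 1 (-0.50) or wild-type replicate 2 (-0.43) was left out, or with equal library totals (-0.18). Transcripts of the sex chromosomes separated the groups as well. Xist was at 12229 ± 2922 (SD, n = 4) in Sav1-null and 0.247 ± 0.494 in wild-type libraries. Eif2s3y, Ddx3y, Uty and Kdm5d, of the Y chromosome, had wild-type means of 1205, 784, 548 and 378. All of these were at 0 in every Sav1-null library. By these transcripts the wild-type libraries were male and the Sav1-null libraries female. Genotype, treatment and sex separate the same libraries, so their parts in any difference below cannot be told apart. The labelled tissue had its defining markers: all 15 proximal tubule markers were measured in both groups. Their summed level was 715785 to 793997 in wild-type and 71151 to 176968 in Sav1-null libraries, lowest in Sav1-null replicate 4.

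Of the 53 genes, 50 averaged 10 or more over the 8 libraries and were tested, and Inhba, Fst and Bmper fell below that level. Grem1 and Bmp8a passed it only through their Sav1-null values, and Nog only through its wild-type values. In the limma comparison, adjusted over all 13677 tested genes, 34 rose in the Sav1-null group, 3 fell and 13 were not called. Of all tested genes 69.1% were called, 43.9% higher and 25.2% lower. Every Sav1-null library lay above every wild-type library in 31 of the 50 tested genes and below in 3, against 41% and 24.1% of all tested genes. The median log2 fold change was 0.72, beside 0.23 over all tested genes.

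The TGF-beta/activin arm moved in 1 direction and the BMP arm in both. In the TGF-beta/activin arm 16 of 19 tested genes rose and none fell, with a median log2 fold change of 0.89. In the BMP arm 13 of 23 rose and 3 fell, with a median of 0.59. The counts at least 2-fold higher were 9 and 6, where 23.1% of all tested genes were called and at least 2-fold higher; 1 gene, Bmp7, was at least 2-fold lower, against 9.51%. The difference between the arms was not tested, since genes are not replicates. Of the 8 genes outside the arms 5 rose (62.5%) and none fell.

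**Figure D1:**
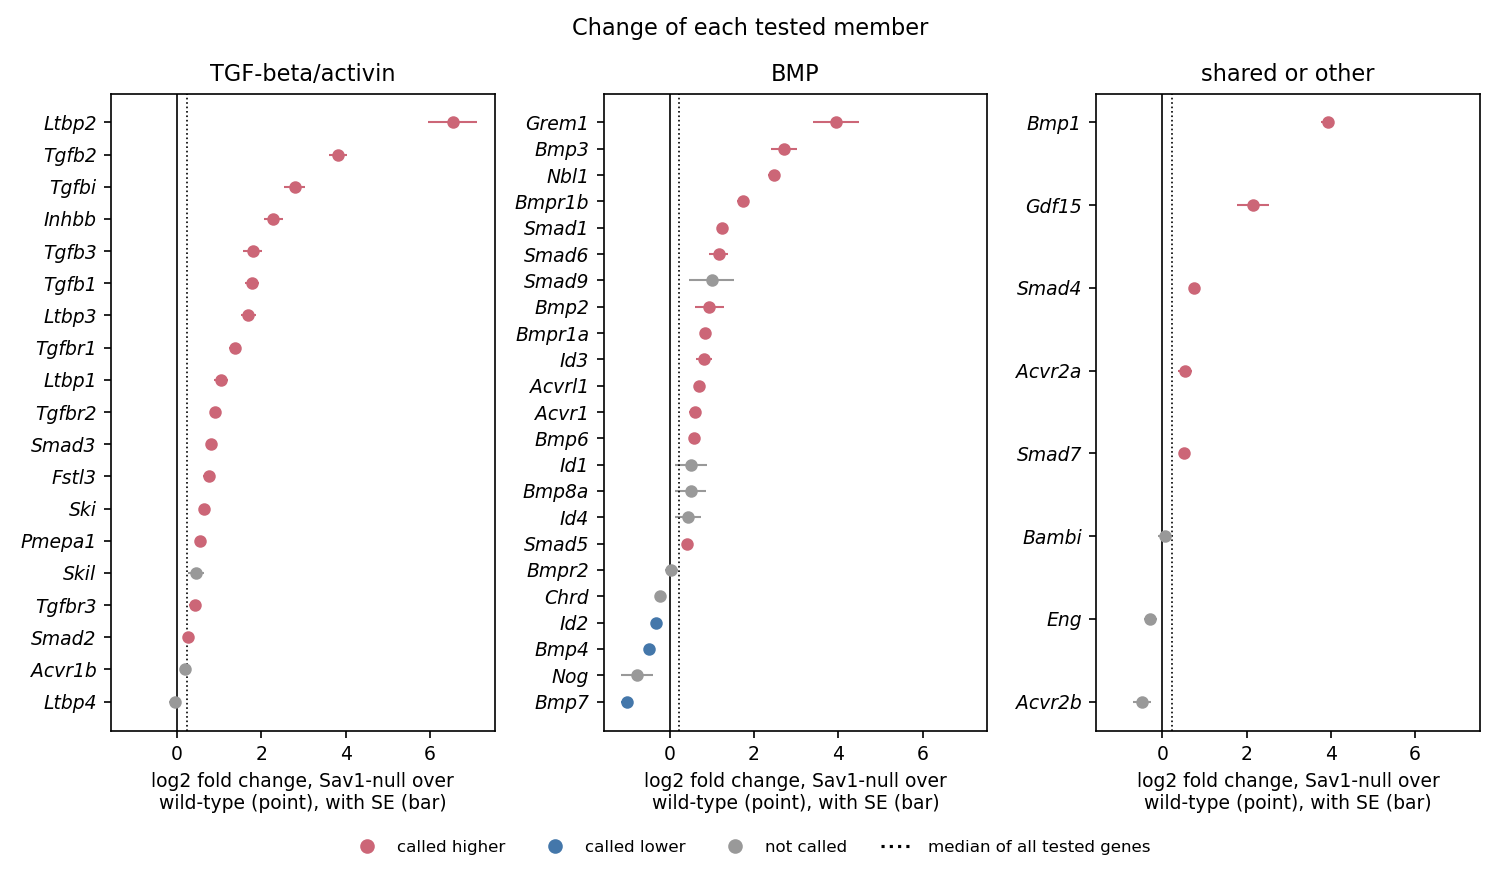
Log2 fold change (Sav1-null over wild-type, horizontal axis) of each tested gene with its standard error as a bar, by arm; colours give the limma call and the dotted line the median of all tested genes, 0.23. Ltbp2, at 6.54, lies farthest to the right, and Bmp7, at -1.02, is the lowest point.

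All 3 TGF-beta ligands rose, beside 43.9% of all tested genes, Tgfb2 by the largest factor of the 3. Tgfb2, the isoform best known from development and from epithelia, was at 25.4, 20.1, 21.1 and 16.5 in the wild-type libraries and at 272, 304, 245 and 418 in the Sav1-null libraries. The groups lay far apart, and the difference was 14.1-fold (log2 fold change 3.82 ± 0.21, limma adjusted p = 1.12e-06). Tgfb1, the isoform most often linked to fibrosis, was at 112, 125, 125 and 90.7 and at 365, 436, 302 and 462, 3.41-fold higher (limma adjusted p = 1.65e-05). Tgfb3 was at 20.9, 26.8, 29.7 and 24.7 and at 78.1, 133, 82.2 and 77.8, 3.47-fold higher (limma adjusted p = 8.86e-05). No library of one group overlapped with the other for any of the 3 ligands, and Sav1-null replicate 2 stood above its group for Tgfb3. Per kilobase of transcript, Tgfb1 had the highest level of the 3 in both groups, 52.1 in wild-type and 179.8 in Sav1-null. On the same scale Tgfb2 went from 4.06, below Tgfb3 at 7.54, to 60.6, above Tgfb3 at 27.4.

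The activin subunit genes differed from each other in level. Inhbb, which encodes the beta B subunit of activin B and inhibin B, was at 29.0, 23.5, 34.4 and 25.8 in wild-type and 142, 182, 156 and 95.5 in Sav1-null libraries. It rose 4.89-fold (limma adjusted p = 2.20e-05), and the lowest Sav1-null library was still above every wild-type library. Inhba, which encodes the beta A subunit of activin A, had 5 reads in all wild-type libraries together and 5 in all Sav1-null libraries together. At such counts, near the floor of 3 reads in a library, no difference was detectable at this depth.

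Of the 4 latency protein genes 3 rose (75%, beside 43.9% of all tested genes), and Ltbp2 had the largest fold change of all 50 tested genes. LTBP1, LTBP3 and LTBP4 bind latent TGF-beta, whereas LTBP2, a matrix protein of elastic fibres, does not bind it. Ltbp2 was at 4.53, 24.3, 9.57 and 2.06 in the wild-type libraries and at 617, 1034, 523 and 1019 in the Sav1-null libraries. The rise was 93.2-fold (log2 fold change 6.54 ± 0.58, limma adjusted p = 1.12e-05). The tubule injury marker Havcr1 was at 23.6, 1099, 665 and 15.5 in the wild-type libraries, so replicates 2 and 3 were the highest in their group for Havcr1 and for Ltbp2 alike. Without both of them the log2 fold change of Ltbp2 was 7.54, and with a pseudocount of 10 it was 5.39. Ltbp3 was at 384, 424, 521 and 469 and at 1280.5, 1566, 1101 and 1968, 3.23-fold higher (limma adjusted p = 2.89e-05). Ltbp1 was at 109.7, 98.8, 119.6 and 97.9 and at 183, 283, 180.1 and 248, 2.06-fold higher (limma adjusted p = 5.09e-04), a call lost on quantile-normalized values (log2 fold change 0.40, limma adjusted p = 0.0745). Within the group, Sav1-null replicates 2 and 4 were the higher pair for Ltbp1, Ltbp2 and Ltbp3 alike. Ltbp4 was at 361, 359, 512 and 356 and at 444, 375, 350.0 and 359, with overlapping groups and a log2 fold change of -0.042 (limma adjusted p = 0.803).

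Of the 4 receptor and co-receptor genes of the TGF-beta/activin arm 3 rose (75%, beside 43.9% of all tested genes). Tgfbr1, the type I receptor ALK5, was at 1251, 1415, 1036 and 1154 in wild-type and 3408, 3423, 3431 and 2417 in Sav1-null libraries, 2.60-fold higher (limma adjusted p = 2.34e-05). Sav1-null replicate 4 was lower than the other 3 but above every wild-type library. Tgfbr2, the type II receptor that binds the ligand first, was at 2370.4, 2382, 2330.1 and 2413 and at 4183, 4522, 3983 and 4996, 1.86-fold higher (limma adjusted p = 1.37e-05). Its wild-type mean was 2374 ± 34.4 (SD, n = 4), a spread far below the difference. Tgfbr3, the co-receptor betaglycan, was at 266, 336, 347 and 270.1 and at 449, 408, 446 and 335, with overlapping groups (log2 fold change 0.42, limma adjusted p = 0.0194). Its call was lost after median-of-ratios scaling, on quantile-normalized values and without any of 4 single libraries (wild-type replicates 1 and 4, Sav1-null replicates 1 and 3; limma adjusted p from 0.0526 to 0.0571). Acvr1b, the activin type I receptor ALK4, was at 699 ± 33.7 and 802 ± 81.8 and was not called (limma adjusted p = 0.0854). Its log2 fold change of 0.19 was -0.031 after median-of-ratios scaling, and it was called at 0.58 with equal library totals and at 0.27 without Sav1-null replicate 4.

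Both SMADs of this arm rose, beside 43.9% of all tested genes, Smad3 by the larger factor. Smad3 was at 914, 843, 731 and 699 in wild-type and 1271, 1403, 1282 and 1615 in Sav1-null libraries, 1.75-fold higher (limma adjusted p = 1.79e-04). Smad2 was at 791, 716, 700.5 and 729 and at 949, 838, 846 and 857, 1.19-fold higher with no overlap (limma adjusted p = 0.0153). The Smad2 call was lost after median-of-ratios scaling (log2 fold change 0.024), on quantile-normalized values (0.14) and without both Havcr1-high wild-type libraries (0.20). The ratio of Smad3 to Smad2 within a library, which a single factor per library cannot change, was 1.16, 1.18, 1.04 and 0.959 in the wild-type and 1.34, 1.67, 1.52 and 1.88 in the Sav1-null group. Smad4, the partner of both arms, was at 896, 847, 754 and 740.2 and at 1359, 1411, 1416 and 1255, 1.68-fold higher (limma adjusted p = 4.92e-05).

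Of 4 intracellular inhibitors of SMAD2 and SMAD3 signalling 3 rose, beside 43.9% of all tested genes. Ski, a nuclear co-repressor of SMAD complexes, was at 1195, 1181, 1259 and 1112 in wild-type and 1868, 1860.2, 1669 and 2033 in Sav1-null libraries, 1.56-fold higher (limma adjusted p = 8.02e-05). Pmepa1, a membrane protein that sequesters SMAD2 and SMAD3, was at 868, 859, 866 and 838 and at 1275, 1373, 1013 and 1429, 1.47-fold higher (limma adjusted p = 0.00127). The wild-type libraries were nearly alike for Pmepa1, and the Sav1-null libraries all lay above them. Skil, the Ski paralogue SnoN, was at 757, 701, 412 and 527 and at 801, 870.0, 880.1 and 660.4. Its groups overlapped and it was not called (limma adjusted p = 0.0571), but a fit with the replicate number as a block called it (adjusted p = 0.0482), as did equal library totals (adjusted p = 0.00209) and the fits without wild-type replicate 1 (adjusted p = 0.0237), wild-type replicate 2 (adjusted p = 0.0430) or Sav1-null replicate 4 (adjusted p = 0.0269). Smad7, the inhibitory SMAD that targets type I receptors of both arms, was at 321, 337, 314 and 286 and at 414, 425, 449 and 513, 1.43-fold higher (limma adjusted p = 0.00136), a call lost on quantile-normalized values (adjusted p = 0.0790).

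The secreted activin antagonists were low. Fstl3 was at 102, 88.8, 93.3 and 92.0 in wild-type and 155, 196, 151 and 144 in Sav1-null libraries, 1.70-fold higher (limma adjusted p = 8.32e-04), and lost the call on quantile-normalized values (log2 fold change 0.058). Fst, the gene of follistatin, was below the filter at 1.81, 0, 0 and 0 in wild-type and 13.3, 19.6, 37.1 and 1.97 in Sav1-null libraries. It had 2 reads in all wild-type libraries together and 86 in the Sav1-null libraries, a ratio of 40.4 with an exact 95% interval from 10.9 to 339 that covers counting error only. Sav1-null replicate 4 held almost none of those reads. Tgfbi, a secreted matrix protein named for its induction by TGF-beta, was at 104, 129.8, 157 and 64.9 and at 675, 765, 693 and 929. It was 6.95-fold higher with no overlap (limma adjusted p = 1.14e-05).

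**Figure D2:**
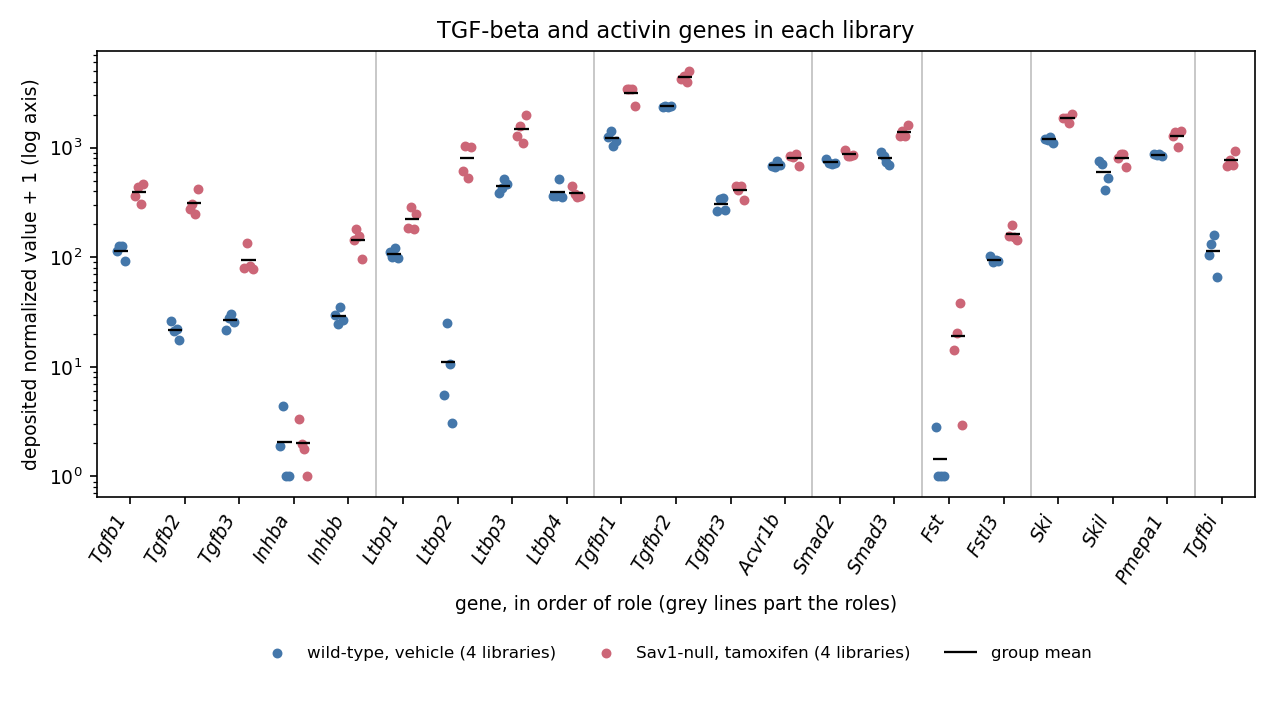
Deposited normalized value + 1 (vertical log axis) of each TGF-beta/activin gene in each of the 4 wild-type (blue) and 4 Sav1-null (red) libraries, with group means as black lines and grey lines between roles. The groups are apart for Tgfb1, Tgfb2, Tgfb3, Inhbb, Ltbp2 and Tgfbi and overlap for Ltbp4, Acvr1b and Skil.

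To show what lies next to these genes, the 250 bases before the start of 4 genes with large rises are printed from RefSeq (build GRCm38.p6), each 5′ to 3′ on the gene's strand. These are Tgfb2 (chr1:186705990-186706239, minus strand), Ltbp2 (chr12:84876492-84876741, minus strand), Tgfbi (chr13:56609336-56609585, plus strand) and Nbl1 (chr4:139092971-139093220, minus strand), a ligand, a matrix protein of the LTBP family, a target and a BMP antagonist. Capitals mark matches on either strand to CAGAC (the short SMAD box) or GGCGCC (a GC-rich SMAD site).
Tgfb2: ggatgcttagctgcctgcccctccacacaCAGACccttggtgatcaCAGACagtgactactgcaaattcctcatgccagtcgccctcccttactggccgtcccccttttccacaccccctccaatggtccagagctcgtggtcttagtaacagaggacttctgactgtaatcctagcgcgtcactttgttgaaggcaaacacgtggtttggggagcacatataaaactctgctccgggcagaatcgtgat
Ltbp2: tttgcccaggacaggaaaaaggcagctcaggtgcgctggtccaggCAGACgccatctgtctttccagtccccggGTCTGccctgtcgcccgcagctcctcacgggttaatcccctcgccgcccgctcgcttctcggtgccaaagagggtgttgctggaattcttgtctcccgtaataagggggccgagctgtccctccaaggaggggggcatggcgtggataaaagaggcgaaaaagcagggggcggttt
Tgfbi: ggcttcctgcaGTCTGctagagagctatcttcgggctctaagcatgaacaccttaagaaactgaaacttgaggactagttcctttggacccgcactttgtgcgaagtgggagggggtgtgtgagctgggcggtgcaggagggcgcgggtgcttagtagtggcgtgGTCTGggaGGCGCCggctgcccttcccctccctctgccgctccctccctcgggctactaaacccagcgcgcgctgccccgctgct
Nbl1: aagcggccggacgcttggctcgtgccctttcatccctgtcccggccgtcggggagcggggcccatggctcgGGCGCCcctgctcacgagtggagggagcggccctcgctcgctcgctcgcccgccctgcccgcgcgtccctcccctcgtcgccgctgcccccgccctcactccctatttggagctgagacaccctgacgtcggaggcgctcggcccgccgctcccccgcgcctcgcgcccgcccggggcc

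Promoter windows of 37 of the 53 genes were matched by symbol. CAGAC, read on either strand like every motif here, stood in 16 of the 37 windows (43.2%), against 42.2% of all 32851 windows of the same length. GGCGCC stood in 11 of 37 (29.7%) against 9.59%; the median GC content of the windows was 66.8% in these genes and 52.4% in all, and its part in that count was not tested. GGAATG (the TEAD site) stood in 3 of 37 windows (8.11%) against 12.6% of all. TTCNNNGAA (the STAT site), TGANTCA (the AP-1 site) and GTCTAGAC (the palindromic SMAD box) stood in none of the 37, against 7.02%, 6.75% and 0.167% of all. No motif contains another. A match describes letters in the window and is not a binding site shown by these data.

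BMP ligands went in opposite directions. Bmp7 was at 856, 873, 1100.5 and 1119.6 in the wild-type libraries and at 545, 494, 496 and 404 in the Sav1-null libraries. It fell 2.03-fold without overlap (log2 fold change -1.02 ± 0.13, limma adjusted p = 8.83e-05), and was the single gene of the 50 called lower under all 4 scalings tried. Bmp4, a ligand of renal development, was at 650.2, 711, 723 and 654 and at 451, 512, 559 and 433, 1.40-fold lower (limma adjusted p = 0.00174), a call lost with equal library totals (log2 fold change -0.11). Bmp6, known as the ligand that drives hepcidin in the liver and also made in the kidney, was at 657, 779, 964 and 795 and at 1313, 1126, 1116 and 1171, 1.49-fold higher (limma adjusted p = 0.00175). Within a library the ratio of Bmp6 to Bmp7 was 0.767, 0.893, 0.876 and 0.710 in the wild-type group and 2.41, 2.28, 2.25 and 2.90 in the Sav1-null group. Every wild-type library therefore had a lower value for Bmp6 than for Bmp7, and every Sav1-null library a higher one.

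The remaining BMP ligands were much lower in level. Bmp3, a ligand that opposes other BMPs, was at 12.7, 12.6, 14.4 and 9.28 in wild-type and 62.5, 101, 59.3 and 143 in Sav1-null libraries, 6.61-fold higher (limma adjusted p = 4.80e-05). Its log2 fold change was 2.72, or 2.12 with a pseudocount of 10, and Sav1-null replicates 2 and 4 were again the higher pair. Bmp2 was at 25.4, 10.9, 12.4 and 17.5 and at 22.6, 27.4, 30.8 and 49.2, with wild-type replicate 1 inside the Sav1-null range. It was called higher (1.92-fold, limma adjusted p = 0.0311), but the sign turned on quantile-normalized values (log2 fold change -0.16) and the call was lost after median-of-ratios scaling. It was also lost without wild-type replicate 2 (0.78), wild-type replicate 3 (0.84), Sav1-null replicate 3 (0.95) or Sav1-null replicate 4 (0.73), and without both Havcr1-high wild-type libraries (0.54). Bmp8a, whose near-identical copy Bmp8b may share its reads, was at 8.87 ± 2.84 and 13.1 ± 4.14 and was not called (limma adjusted p = 0.246). Per kilobase of transcript, wild-type levels were 332 for Bmp4, 269 for Bmp7, 222 for Bmp6, 4.66 for Bmp2, 3.69 for Bmp8a and 1.85 for Bmp3. In the Sav1-null libraries Bmp6 came first at 329, before Bmp4 at 237 and Bmp7 at 132.

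Of 5 BMP receptor genes 4 rose (80%, beside 43.9% of all tested genes). Bmpr1b, the type I receptor ALK6, was at 157, 136, 121 and 116 in wild-type and 376, 503, 409 and 485 in Sav1-null libraries, 3.33-fold higher (limma adjusted p = 7.04e-06). Bmpr1a, the widely expressed type I receptor ALK3, was at 1092, 1164, 926 and 1021 and at 2012, 1955, 2000.4 and 1564, 1.79-fold higher (limma adjusted p = 9.70e-05), with Sav1-null replicate 4 below the other 3. Neither pair of groups overlapped. Acvr1, the type I receptor ALK2, was at 199, 207, 191 and 156 and at 313, 282, 258 and 278, 1.5-fold higher (limma adjusted p = 0.00190). Its call was lost on quantile-normalized values (log2 fold change 0.12). Bmpr2, the main BMP type II receptor, was at 234 ± 41.7 and 239 ± 33.5 (limma adjusted p = 0.835), and its log2 fold change of 0.040 turned to -0.18 after median-of-ratios scaling. Bmpr2 was called lower on quantile-normalized values (-0.42, adjusted p = 0.0369) and higher with equal library totals (0.42, adjusted p = 0.0296). Of the activin type II receptors, which both arms use, Acvr2a was at 478, 515, 373 and 374 and at 698, 672, 691 and 459, with overlapping groups, and was called higher (limma adjusted p = 0.0178). That call was lost after median-of-ratios scaling (adjusted p = 0.109), on quantile-normalized values (adjusted p = 0.118), without wild-type replicate 3 (adjusted p = 0.0517) or 4 (adjusted p = 0.0520) and without both Havcr1-high wild-type libraries (adjusted p = 0.0533). Acvr2b was at 47.2, 57.8, 81.3 and 81.4 and at 45.3, 49.9, 45.0 and 45.3 and was not called as deposited (limma adjusted p = 0.0637). It was called lower after median-of-ratios scaling (adjusted p = 0.0157), on quantile-normalized values (adjusted p = 2.83e-04), without an intensity trend (adjusted p = 0.0407) and without wild-type replicate 1 (adjusted p = 0.0198).

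The receptors of endothelial cells separated. Acvrl1, the endothelial type I receptor ALK1, was at 153, 142, 166 and 142 in wild-type and 227, 248, 246 and 250 in Sav1-null libraries, 1.61-fold higher (limma adjusted p = 2.84e-04), a call lost on quantile-normalized values (adjusted p = 0.305). Eng, its co-receptor endoglin, was at 984, 855, 1065 and 806 and at 837, 869, 809 and 553, with overlapping groups (log2 fold change -0.29, limma adjusted p = 0.125), and was called lower after median-of-ratios scaling (adjusted p = 0.0123), while its sign turned with equal library totals (0.096). The ratio of Acvrl1 to Eng within a library was 0.156, 0.166, 0.155 and 0.176 in the wild-type and 0.271, 0.286, 0.304 and 0.452 in the Sav1-null group, without overlap. Of 16 endothelial cell markers, all tested and with Eng among them, none was called higher and 1 lower (6.25%), beside 43.9% and 25.2% of all tested genes. Their summed level was 5499 to 6968 in wild-type and 2887 to 6178 in Sav1-null libraries. For each of these 16 markers Sav1-null replicate 4 was the lowest library of its group, and it alone set the lower end of that sum. In whole cortex, fewer cells of a type and less RNA per cell cannot be told apart.

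The SMADs of the BMP arm were led by Smad1. Smad1 was at 209, 213, 200 and 224 in wild-type and 487, 518, 519.9 and 470.5 in Sav1-null libraries, 2.35-fold higher (limma adjusted p = 3.36e-06). Both groups were tight, and the gap between them was many times their spread. Smad5 was at 1226, 1170.3, 1090.0 and 1008 and at 1542, 1508, 1553 and 1361, 1.33-fold higher (limma adjusted p = 0.00176), and the call was lost after median-of-ratios scaling (log2 fold change 0.19). Smad9 was at 10.9, 15.1, 14.4 and 3.09 and at 31.2, 9.78, 17.4 and 28.5, with overlapping groups (limma adjusted p = 0.118), and its log2 fold change of 0.99 turned to -0.10 on quantile-normalized values and was 1.35 and called with equal library totals (adjusted p = 0.0384). Smad6, the inhibitory SMAD of BMP receptors and itself a BMP-induced gene, was at 60.8, 50.3, 98.6 and 83.5 and at 141, 152, 145 and 212, 2.24-fold higher (limma adjusted p = 0.00166). Its call was lost on quantile-normalized values (adjusted p = 0.180), and Sav1-null replicate 4 stood above the other 3.

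The Id genes, inhibitors of basic helix-loop-helix factors and direct BMP targets in many cells, gave 1 call higher, 1 lower and 2 without a call. Over all tested genes 43.9% were called higher and 25.2% lower. Id3 was at 449, 457, 741 and 468 in wild-type and 904, 785, 801 and 1197 in Sav1-null libraries, 1.76-fold higher (limma adjusted p = 0.00390). Id1 was at 149, 248.8, 522 and 343 and at 508, 251, 381 and 563; its wild-type libraries alone spanned most of the range of both groups, and it was not called (log2 fold change 0.51 ± 0.38, limma adjusted p = 0.256). Id4 was at 152, 186, 126 and 92.8 and at 274, 145, 251 and 112 and was not called (limma adjusted p = 0.246), and its log2 fold change of 0.44 turned to -0.18 on quantile-normalized values and was 0.82 and called with equal library totals (adjusted p = 0.0340). Id2, the Id gene with the highest level per kilobase in both groups, was at 4346, 3888, 3311 and 2864 and at 2975, 2805, 2997 and 2591. It was called lower (log2 fold change -0.33, limma adjusted p = 0.0431), but the groups overlapped, the sign turned with equal library totals (0.057), and the call was lost on quantile-normalized values, without an intensity trend, without both Havcr1-high wild-type libraries, and in 7 of the 8 fits that left out 1 library. The exception was the fit without wild-type replicate 4, and the limma adjusted p lay between 0.0529 and 0.114 in the other 7.

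Of the 4 tested BMP antagonists 2 rose, both from low wild-type levels, a share of 50% beside 43.9% of all tested genes. Among the 4, Grem1 was tested only through its Sav1-null values and Nog only through its wild-type values. Nbl1, a DAN family antagonist, was at 65.3, 96.3, 89.0 and 70.1 in wild-type and 403, 468, 426 and 481 in Sav1-null libraries, 5.54-fold higher (limma adjusted p = 1.70e-06). Grem1, the gene of gremlin, which binds BMP2, BMP4 and BMP7, was at 1.81, 0.838, 4.78 and 0 and at 32.0, 55.7, 33.2 and 25.6. It rose 15.4-fold (limma adjusted p = 1.49e-04), and at this level the factor depends on a few wild-type reads. The log2 fold change of 3.95 was 1.95 with a pseudocount of 10 and 4.40 with 0.5. Chrd, the gene of chordin, was at 166, 187, 184 and 194 and at 160.1, 153, 166 and 145. All its Sav1-null libraries lay below all wild-type libraries, the nearest pair by less than 1 unit, but it was not called as deposited (log2 fold change -0.22, limma adjusted p = 0.0896). It was called lower after median-of-ratios scaling (adjusted p = 0.00494), on quantile-normalized values (adjusted p = 1.67e-04) and without an intensity trend (adjusted p = 0.0420), and its sign turned with equal library totals (0.16). Nog, the gene of noggin, was at 11.8, 10.9, 23.0 and 14.4 and at 7.03, 8.80, 4.74 and 13.8 and was not called (limma adjusted p = 0.0985). It was called lower after median-of-ratios scaling (adjusted p = 0.0472), on quantile-normalized values (adjusted p = 0.00293) and without Sav1-null replicate 4 (adjusted p = 0.0348). Bmper stayed below the filter at 5.57 ± 0.606 and 7.31 ± 3.01.

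**Figure D3:**
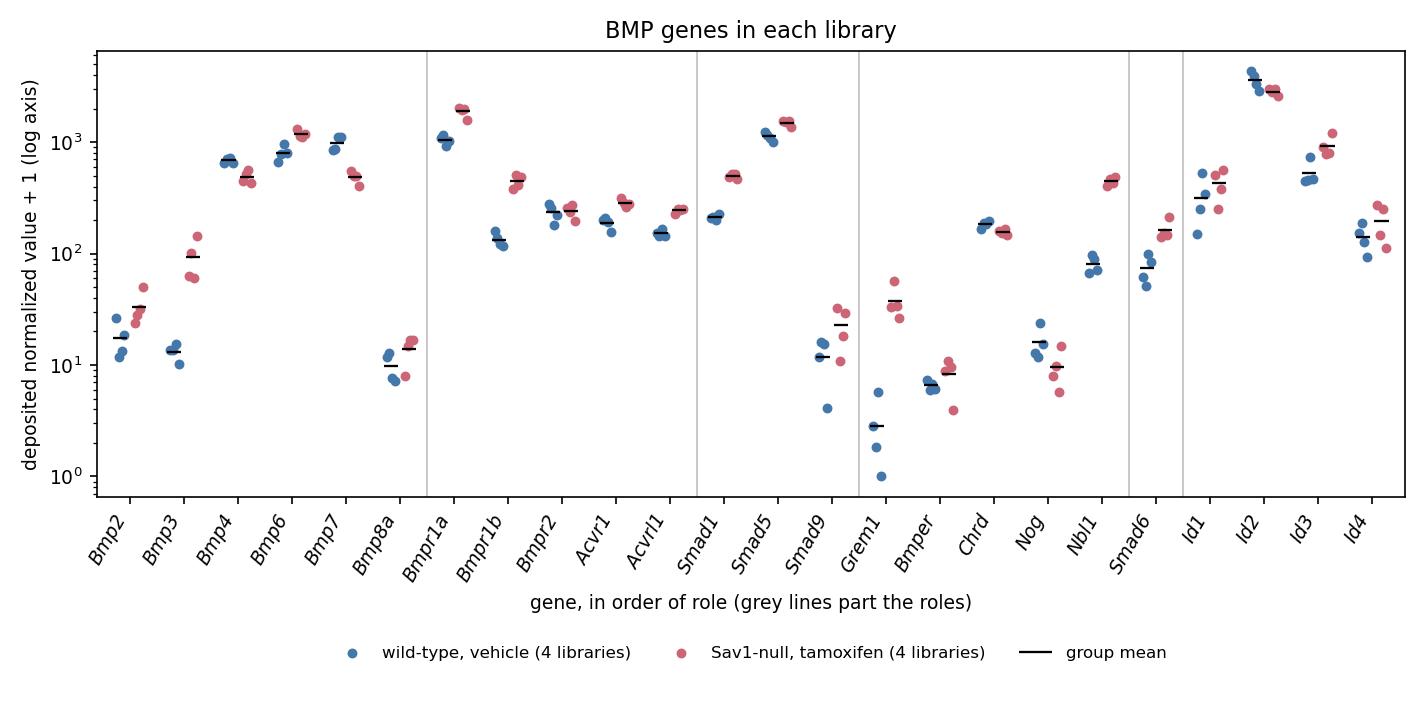
Deposited normalized value + 1 (vertical log axis) of each BMP gene in each of the 4 wild-type (blue) and 4 Sav1-null (red) libraries, with group means as black lines and grey lines between roles. Bmp4 and Bmp7 are lower and Bmp6, Bmpr1b, Smad1 and Nbl1 higher in all Sav1-null libraries, while Id1, Id4 and Bmpr2 overlap.

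Bmp1 and Gdf15 belong to neither arm. Bmp1 encodes not a growth factor but a metalloproteinase that matures procollagens and lysyl oxidase and cleaves chordin and LTBP1. It was at 40.8, 56.1, 52.6 and 35.1 in the wild-type libraries and at 716, 695, 724 and 687 in the Sav1-null libraries. The 15.2-fold rise had the smallest limma adjusted p of the 50 genes (adjusted p = 3.42e-07), and the Sav1-null libraries differed little (705 ± 17.2, SD, n = 4). Gdf15, a divergent, stress-induced ligand that signals through the brainstem receptor GFRAL, was at 98.8, 138, 175 and 221 and at 888, 471, 397 and 1269.7. It rose 4.45-fold (limma adjusted p = 7.57e-04) with a wide spread, replicates 1 and 4 being the high Sav1-null libraries. Bambi, a pseudoreceptor without a kinase domain, was at 54.4, 42.7, 60.3 and 56.7 and at 62.5, 48.9, 64.8 and 49.2 and was not called (limma adjusted p = 0.743). Its log2 fold change of 0.072 turned to -0.88 on quantile-normalized values, where it was called lower, and was 0.45 and called higher with equal library totals.

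Ratios between genes of the family within a library do not depend on a single scaling factor per library, though quantile normalization can change them; these pairs were chosen after the values were seen and were not tested. Tgfb1 over Bmp7 was 0.131, 0.143, 0.114 and 0.0810 in the wild-type libraries and 0.669, 0.883, 0.608 and 1.14 in the Sav1-null libraries. Tgfb2 over Tgfb1 was 0.226, 0.161, 0.168 and 0.182 and 0.747, 0.697, 0.812 and 0.906. Both ratios separated the groups, and for Tgfb2 over Tgfb1 the gap was wider than the range within either group. Ltbp3 over Ltbp4 was 1.06, 1.18, 1.02 and 1.32 and 2.88, 4.17, 3.15 and 5.48. Bmpr1b over Bmpr1a was 0.144, 0.117, 0.130 and 0.114 and 0.187, 0.258, 0.205 and 0.310. In both cases the groups did not overlap, and Sav1-null replicates 2 and 4 had the higher ratios. Tgfbr2 over Tgfbr3 was 8.92, 7.09, 6.71 and 8.94 and 9.32, 11.1, 8.94 and 14.9, where the nearest libraries of the groups were almost equal.

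**Figure D4:**
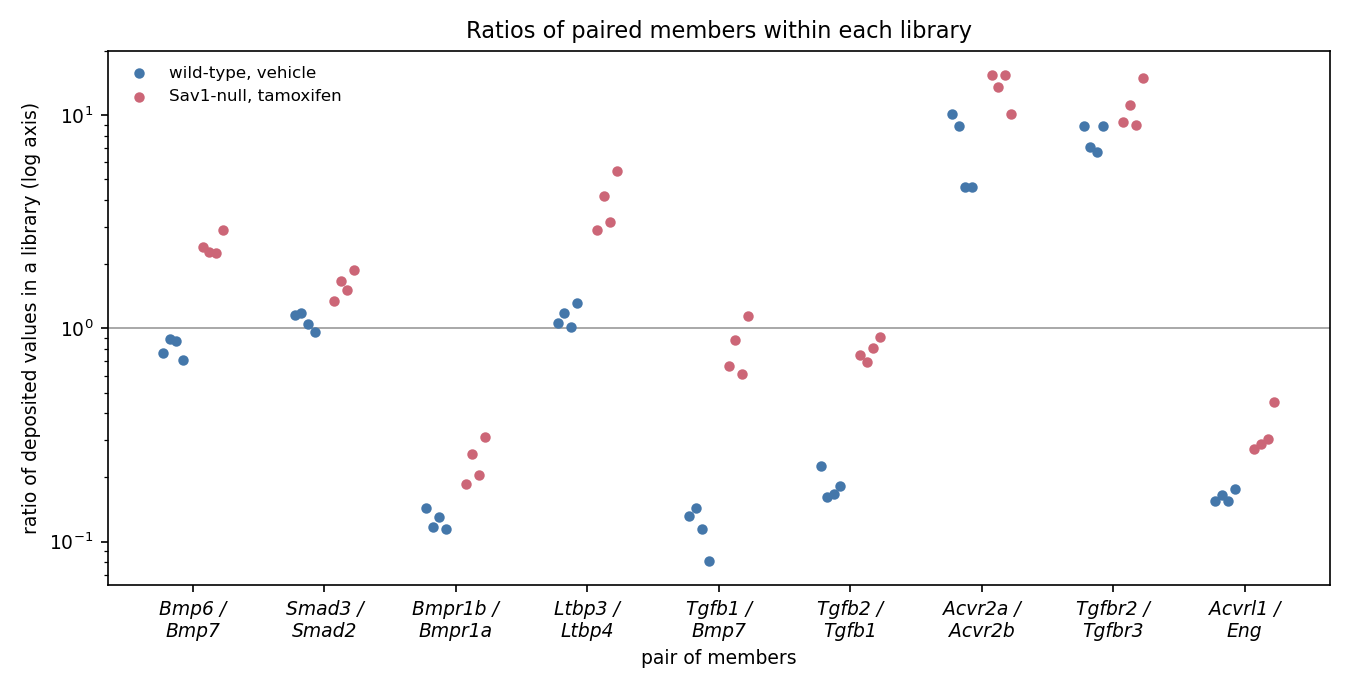
Ratio of the deposited values of 2 genes within each wild-type (blue) and Sav1-null (red) library, on a log axis. Bmp6 over Bmp7 lies below 1 in all wild-type libraries and above 1 in all Sav1-null libraries; ratios are not corrected for transcript length, so their height is read between groups and not between pairs.

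The direction of small differences depended on the scaling between libraries. Over the whole table the median log2 fold change was 0.23 as deposited, and it shifted by -0.23 after median-of-ratios scaling, by -0.26 on quantile-normalized values and by 0.39 with equal library totals. Calls in the TGF-beta/activin arm were 16 higher and 0 lower as deposited, 14 and 0 after median-of-ratios scaling, 12 and 0 on quantile-normalized values and 19 and 0 with equal totals, where Fst passed the filter and 20 were tested. Calls in the BMP arm were 13 and 3, 11 and 5, 9 and 5, and 16 and 1 in the same order, so that 81.2%, 68.8%, 64.3% and 94.1% of its calls were higher. Over both arms and the other genes, 91.9% of calls were higher as deposited and 80.6%, 77.4% and 97.6% under the other scalings. Relative to the median of all tested genes, the TGF-beta/activin median was higher by 0.66, 0.66, 0.80 and 0.73, and the BMP median by 0.36, 0.36, 0.15 and 0.36. Called higher under all 4 scalings were 12 genes of the TGF-beta/activin arm (Inhbb, Ltbp2, Ltbp3, Pmepa1, Ski, Smad3, Tgfb1, Tgfb2, Tgfb3, Tgfbi, Tgfbr1 and Tgfbr2) and 8 of the BMP arm (Bmp3, Bmp6, Bmpr1a, Bmpr1b, Grem1, Id3, Nbl1 and Smad1). Bmp1, Gdf15 and Smad4 were also called higher under all 4.

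**Figure D5:**
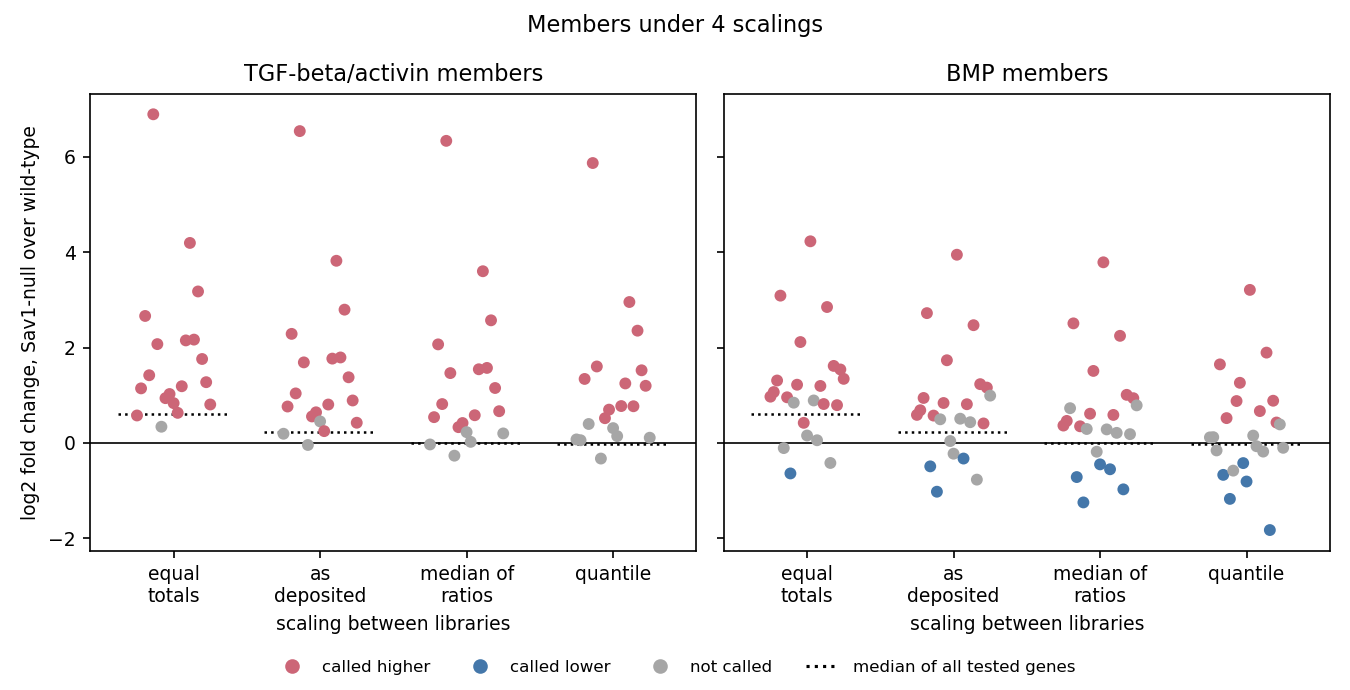
Log2 fold change (vertical axis) of the members tested as deposited in each arm under 4 scalings between libraries; colours give the limma call and dotted lines the median of all tested genes, 0.23 as deposited. The TGF-beta/activin panel holds no gene called lower under any of the 4, and the BMP panel holds 5 called lower after median-of-ratios scaling and 5 on quantile-normalized values.

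Other genes of the pathway were read from lists chosen with earlier results of these data known, so that their counts are not independent evidence. Of 9 tested genes that activate latent TGF-beta, 6 rose (66.7%) and 2 fell (22.2%), beside 43.9% and 25.2% of all tested genes. Their median log2 fold change was 1.51, beside 0.23 over all tested genes. Mmp14, a membrane metalloproteinase, went from 81.5 ± 24.4 to 1145 ± 206 (14.3-fold, limma adjusted p = 1.93e-06), and Thbs1, thrombospondin 1, from 738 ± 182 to 3238 ± 461 (4.45-fold, adjusted p = 8.34e-06). The gene Itgav of an integrin subunit rose 3.77-fold (limma adjusted p = 2.08e-06), and Itgb6, whose product pairs with it to release TGF-beta from its latency peptide, rose 2.84-fold (adjusted p = 1.35e-04). Itgb8, another partner of the alpha v subunit, fell 1.94-fold (adjusted p = 0.0239), and Furin, the convertase that cleaves the TGF-beta precursor, fell 1.60-fold (adjusted p = 3.97e-04).

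Of 18 tested TGF-beta target genes 14 rose (77.8%) and 1 fell (5.56%), beside 43.9% and 25.2% of all tested genes. Their median log2 fold change was 2.10. Fn1, fibronectin, rose 12.2-fold and Cdkn2b, the cell cycle inhibitor p15, 42.6-fold (limma adjusted p = 2.91e-05 and 1.03e-05). Cdkn2b was at 3.21 ± 1.73 in the wild-type libraries and passed the filter only through its Sav1-null values (185 ± 107). Its factor therefore depends on a few wild-type reads. Bhlhe40, a transcriptional repressor, rose 2.23-fold (adjusted p = 9.14e-06). The 1 that fell was Nox4, an NADPH oxidase of tubule cells and fibroblasts (6467 ± 764 to 3964 ± 1618, 1.75-fold, adjusted p = 0.0327). Of 5 tested BMP target genes outside the members 3 rose (60%, beside 43.9% of all tested genes) and none fell (median 1.5). These were Gata3, Gata2 and Runx2 (3.81-fold, 2.83-fold and 3.75-fold, limma adjusted p = 2.37e-05, 1.01e-04 and 0.00382). Runx2 passed the filter only through its Sav1-null values (5.37 ± 1.98 to 24.5 ± 12.1). Atoh8 and Hey1 were not called (log2 fold change 0.47 and -0.094, limma adjusted p = 0.219 and 0.815). Another 6 of the 11 listed genes were below the filter. Gata3 also marks collecting duct cells.

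Further ligands of the family were mostly near 0. Of 20 measured, 4 were tested, and 2 of these rose, a share of 50% near the 43.9% of all tested genes. They were Inha, the inhibin alpha subunit (10.9 ± 2.49 to 73.3 ± 27.7, limma adjusted p = 6.81e-05), and Gdf11 (15.6 ± 4.70 to 81.8 ± 14.5, adjusted p = 3.60e-05). All 3 tested co-receptors rose, the repulsive guidance molecules Rgma and Rgmb 3.04-fold and 2.32-fold and Scube3 3.56-fold (limma adjusted p = 3.70e-05, 1.47e-05 and 8.46e-06). Of 8 other tested secreted antagonists and modulators 4 rose and none fell, a share of 50% near the 43.9% of all tested genes. Among those that rose were Fstl1 (4.23-fold), Twsg1 (2.96-fold) and Sostdc1 (2.53-fold), an antagonist of BMP7 in the tubule, with limma adjusted p = 1.03e-06, 1.70e-06 and 4.25e-06. Dand5, Chrdl1, Crim1 and Kcp were not called, and 6 more genes of this list were below the filter. Among 18 other intracellular regulators 8 rose and 6 fell (median -0.0081). These shares, 44.4% and 33.3%, were near the 43.9% and 25.2% of all tested genes. The co-repressor genes Tgif1 and Tgif2 rose 4.68-fold and 6.08-fold, the ubiquitin ligase gene Smurf1 2.28-fold and the adaptor gene Tgfb1i1 4.15-fold (limma adjusted p between 5.10e-06 and 3.72e-05, with 3.76e-05 for Tgfb1i1). Tgfbrap1, a receptor-associated adaptor, Wwp1, a ubiquitin ligase, Dab2, an endocytic adaptor that is abundant in the proximal tubule, and Usp15, a deubiquitinase, fell 1.66-fold, 2.24-fold, 2.30-fold and 1.28-fold (limma adjusted p = 1.11e-05, 3.09e-04, 3.25e-04 and 0.00113).

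The makeup of the tissue moved with these differences, and its part in them was not tested. Beside the counts below, 43.9% of all tested genes were called higher and 25.2% lower. All 14 tested macrophage and monocyte markers were called higher, with a summed level of 1339 to 2378 in wild-type and 9647 to 13045 in Sav1-null libraries. Of 12 tested fibroblast and myofibroblast markers 10 were called higher (summed levels 1697 to 2485 in wild-type and 3552 to 9615 in Sav1-null). Among these 10, Mfap4 passed the filter only through its Sav1-null values (2.69 ± 2.18 to 35.5 ± 24.3). From the fibroblast and myofibroblast list 5 genes (Col1a1, Col1a2, Col3a1, Acta2 and Postn) also stand in the list of TGF-beta target genes. Of these 5, Acta2 was not called (649 ± 54.9 to 697 ± 167, limma adjusted p = 0.742) and Postn was below the filter. All 8 tested lymphocyte markers were called higher (summed levels 83.8 to 102 in wild-type and 312 to 408 in Sav1-null). All 15 injured tubule markers were called higher (summed levels 18614 to 38453 in wild-type and 446568 to 774239 in Sav1-null), while 14 of 15 proximal tubule markers were called lower. Of 16 loop of Henle, distal tubule and collecting duct markers 9 were called higher (56.25%) and 1 lower (6.25%). Their summed levels were 106374 to 107036 in wild-type and 101750.0 to 135161 in Sav1-null libraries. Of 11 podocyte markers 2 were called higher (18.2%) and 5 lower (45.5%), with summed levels of 7002 to 8311 in wild-type and 3029 to 6356 in Sav1-null. Sav1-null replicate 4 held the lowest Sav1-null sum for the fibroblast, injured tubule and podocyte lists. The same held for the proximal tubule list and the list from loop of Henle to collecting duct. No marker of these lists was at 0 in all 8 libraries.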

How the data were processed

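RNA had been isolated with the Qiagen RNeasy kit and made into libraries with the TruSeq Stranded mRNA kit, per the labels' protocols. RSEM, Picard 1.64, SAMtools and build mm9 are named in the submitters' processing notes. The aligner, the annotation and the strand setting were not given in the sources used here. The authors deposited 1 table of normalized signal per gene and library, scaled to an upper quartile near 1000 (zeros left out), per the values. These are not counts. Low values were whole multiples of 1 read (within 0.02 read) in 92.7% to 93.3% of cases below a value of 400, too few to run a count model.

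Values were analysed as log2(value + 1) for the 13677 of 21705 rows with a mean of at least 10, with limma 3.58.1 in R 4.3.3 (variances moderated along an intensity trend, two-sided, 6 residual degrees of freedom). The Benjamini-Hochberg adjustment ran over all tested genes, and an adjusted p under 0.05 was a call. The code was first tested on simulated data. Levels per kilobase divide by the longest protein-coding transcript of GENCODE M21 (GRCm38), a build other than that of the files, which gives no coordinates here. Promoters come from RefSeq GRCm38.p6.

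The genes and the lists were chosen with earlier results of these data known. Values in every library are given, by role and arm, for up to 4 called genes with the smallest p, and for uncalled genes with a mean of at least 50 where a role had fewer than 2 calls, and for a few others beyond this rule. From each pathway list, up to 4 called genes with the smallest p in each direction are named, apart from 2 that are not reported here. Alternatives were pseudocounts of 0.5 and 10, no filter, a minimum mean of 50, 3 other scalings, no trend, robust moderation, a replicate block and leaving out each library. Leaving out both wild-type libraries with the highest Havcr1 was chosen after seeing the data.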

Additional observations from a re-analysis of the deposited data

Results flagged for a closer look

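In 8 of 100 groups of 4 libraries examined (50 tested genes, both groups), 1 library stood apart from its group by Dixon's criterion at the 95% level; chance alone gives about 1 in 20. Sav1-null replicate 4 accounted for 4 of them: Tgfbr1 at 2417, Bmpr1a at 1564 and Acvr2a at 459 were lower than in the other 3 Sav1-null libraries, and Smad6 at 212 was higher. Sav1-null replicate 2 stood above its group for Tgfb3 at 133 and for Acvr2b at 49.9. Wild-type replicate 3 stood above its group for Ltbp4 at 512 and for Id3 at 741. Without Sav1-null replicate 4 the log2 fold changes of Tgfbr1, Bmpr1a and Acvr2a were 1.5, 0.93 and 0.67, against 1.38, 0.84 and 0.53 with it, and that of Smad6 was 1.03 against 1.16. Without Sav1-null replicate 2 that of Tgfb3 was 1.61 against 1.79. Without wild-type replicate 3 that of Id3 was 0.99 against 0.81.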

How the results depend on the processing

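Genotype, treatment and sex as read from transcripts separate the same libraries, and the sequencing run is not given. The column headers carry the same set of suffix numbers in both groups and a name prefix in the Sav1-null group only. What these stand for is not given, so a separate handling of the groups cannot be told apart from genotype. Reads without molecular identifiers limit intervals to counting error. Inhba and Bmper, below a mean of 10, were tested only without the filter, and Fst also in the alternatives where it passed. Without the filter 17 of 21 genes of the TGF-beta/activin arm were called higher. The counts of called genes stayed within 1.5 times of the reported ones apart from those that follow. Genes of the family called lower were 7 after median-of-ratios scaling, 7 on quantile-normalized values and 1 with equal library totals, against 3, and those of the BMP arm 5, 5 and 1. All tested genes called lower were 1946 with equal library totals. Leaving out 1 library gave 32 to 36 genes of the family higher and 2 to 3 lower, 15 to 19 and 0 in the TGF-beta/activin arm (of 19 tested, or of 20 where Fst passed the filter), 12 to 13 and 2 to 3 in the BMP arm, and 5471 to 6296 and 3148 to 3632 over all tested genes. Without both wild-type libraries with the highest Havcr1 the family had 32 higher and 2 lower. Sav1 was not called with equal library totals (-0.18), and its log2 fold change lay between -0.71 and -0.43 with 1 library left out.

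Signs turned for genes that were mostly not called, at log2 fold changes of -0.031 (Acvr1b), -0.15 (Bambi) and -0.18 (Bmpr2) after median-of-ratios scaling. On quantile-normalized values they were -0.88 (Bambi), -0.16 (Bmp2), -0.58 (Bmp8a), -0.42 (Bmpr2), -0.18 (Id4) and -0.10 (Smad9). With equal library totals they were 0.16 (Chrd), 0.10 (Eng), 0.057 (Id2) and 0.34 (Ltbp4). Without both wild-type libraries with the highest Havcr1 they were -0.059 (Bmpr2) and 0.087 (Ltbp4). With 1 library left out, Bambi ranged from -0.031 to 0.13, Bmpr2 from -0.076 to 0.14 and Ltbp4 from -0.12 to 0.086. Bmp2 and Id2 were the called genes among these, and the cause was not tested. Over single genes and all alternatives, 866 values kept direction and side of the threshold, 38 lost a call and 22 gained one with the sign kept, and 19 turned in sign. Among the 19, Bmp2 and Id2 also lost a call, and Bambi and Bmpr2 gained one on quantile-normalized values.

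The labels number replicates 1 to 4 in both groups. Same-numbered libraries deviated together with correlations of 0.144, 0.0762, -0.169 and 0.135, and libraries of unlike number with correlations from -0.223 to 0.245. No pairing by number was seen, but 4 libraries in each group cannot exclude one. A fit with the replicate number as a block called 35 genes of the family higher and 3 lower, 17 and 0 in the TGF-beta/activin arm and 13 and 3 in the BMP arm, and 5927 and 3391 over all tested genes. Skil was the gene it added (adjusted p = 0.0482, limma).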

Other observations

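The 34 genes called higher did not share 1 leading library. Sav1-null replicate 4 was the highest of its group in 16 of them and the lowest in 12, and replicates 1, 2 and 3 were the highest in 6, 7 and 5. In the wild-type group replicate 3 was the highest in 14 and replicate 4 the lowest in 16. After centring each gene on its mean over the 8 libraries, the median of the TGF-beta/activin arm was 0.36, 0.67, 0.34 and 0.60 (log2) in Sav1-null replicates 1 to 4, and that of the BMP arm 0.40, 0.22, 0.32 and 0.39. The TGF-beta/activin median was thus above the BMP median by 0.45 and 0.21 in replicates 2 and 4, and differed from it by -0.04 and 0.03 in replicates 1 and 3. Replicates 2 and 4 were also the higher pair for Ltbp1, Ltbp2, Ltbp3 and Bmp3. In the wild-type libraries the same difference was -0.13, -0.19, -0.27 and -0.16. These medians were not tested.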
